A study of Homo sapiens with 24 samples.

Results

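The comparison described here is between the genes that mark ALDHbr cells in SUM159 and those that mark them in SW620, both under DMSO, the solvent control. It used 12 of the series' 24 RNA-seq libraries, all of the DMSO libraries, chosen by their labels alone. SUM159 is an established human breast cancer line and SW620 an established human colon cancer line. Cells of each line were kept in DMSO for 30 h, stained with ALDEFLUOR and sorted into ALDHbr cells, with bright signal, and ALDHneg cells, without it. The 4 groups were SUM159 ALDHbr, SUM159 ALDHneg, SW620 ALDHbr and SW620 ALDHneg, with 3 libraries each from independent experiments. The other 12 libraries came from the same sorts after nifuroxazide (NIF) and were used as a check at the end and in a fit of all 24 libraries that is given as an alternative. Each cancer type is represented by a single line, so tissue of origin and line cannot be told apart.

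Aldehyde dehydrogenases oxidise aldehydes to carboxylic acids. ALDH1A1 and ALDH1A3 make retinoic acid from retinal, and ALDH1A1 is the enzyme most often linked to the ALDEFLUOR signal, which is high in tumour cells with stem-like properties in many cancers. The sort therefore enriches for an enzyme activity and not for a named cell type, and it can pick up different gene programs in different lines. The question was which genes differed between ALDHbr and ALDHneg cells in both lines, in 1 line only or in opposite directions. To answer it, all 12 libraries entered 1 model, and besides the ALDHbr against ALDHneg contrast of each line the difference between the 2 contrasts (SUM159 minus SW620) was tested for every gene. A gene was called at an adjusted p below 0.05 in edgeR's quasi-likelihood test with Benjamini-Hochberg adjustment over 15709 genes, and every adjusted p here comes from that test. Log2 fold changes are ALDHbr over ALDHneg, the log2 difference is SUM159 minus SW620, and expression levels are read counts scaled to library size (CPM) with trimmed mean of M-values (TMM) factors, listed in the order of replicates 1 to 3.

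The libraries held 30253187 to 41573418 counts. Mesenchymal and colon markers separated the lines: the mesenchymal score, a mean log2 CPM over the list, was 8.49 to 9.00 in SUM159 and -0.76 to -0.35 in SW620. A pair of libraries stood apart. In SW620 ALDHbr replicate 2 the deviation from its group's mean rose with the gene's span on the genome (Spearman 0.359 across genes), its ribosomal protein share was 6.34% against 7.78% and 7.60% in the other SW620 ALDHbr libraries, and its weight in a quality-weighted fit was the lowest of the 12, 0.262. SUM159 ALDHbr replicate 3 held reads of genes that mark SW620: over 108 genes at 20 CPM or more in SW620 ALDHbr cells and below 0.1 CPM in every SUM159 ALDHneg library, it had 0.318% of the SW620 level, against 0.0142% to 0.0203% in the other 5 SUM159 libraries. These thresholds were chosen after the data were seen, and values without either library are given beside results that changed without it, though not for every gene list. These are bulk libraries, in which fewer cells of a type and less RNA per cell cannot be told apart.

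ALDH1A1 marked ALDHbr cells in both lines, by very different amounts and from very different levels. In SUM159 it was at 143, 97.9 and 148 CPM in ALDHbr cells and 0.461, 0.397 and 0.520 CPM in ALDHneg cells. Its level in SW620 was 1437, 1349.6 and 1398 CPM in ALDHbr cells and 941, 983 and 959 CPM in ALDHneg cells. ALDHbr and ALDHneg libraries did not overlap in either line, and ALDHneg cells of SW620 held more ALDH1A1 mRNA than ALDHbr cells of SUM159. The change was 8.12 on the log2 scale in SUM159 (SE 0.19, adjusted p = 3.75e-12) and 0.54 in SW620 (SE 0.11, adjusted p = 0.0154), and the line difference was called (log2 difference 7.58, SE 0.23, adjusted p = 1.17e-10). The SW620 call was lost when ALDHbr replicate 1 or any of the 3 ALDHneg libraries of SW620 was left out (log2 values 0.52 to 0.55, adjusted p 0.054 to 0.0634).

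ALDH1A3, the other retinal-oxidising enzyme named above, went in opposite directions. SW620 had 144, 154 and 141 CPM in ALDHbr cells and 189, 194 and 185 CPM in ALDHneg cells, and all ALDHbr values were below all ALDHneg values. In SUM159 the gene was close to the detection limit, with 0.472, 0.451 and 0.860 CPM in ALDHbr cells and 0.136, 0.183 and 0.260 CPM in ALDHneg cells. The log2 fold change was -0.37 in SW620 (adjusted p = 0.0265) and 1.61 in SUM159 (adjusted p = 0.00196). The SUM159 value was 1.22, adjusted p = 0.0204 without SUM159 ALDHbr replicate 3, and the SW620 call was lost when any SW620 library other than ALDHbr replicate 2 was left out (log2 values -0.38 to -0.34, adjusted p 0.0864 to 0.13).

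Of the 19 aldehyde dehydrogenases tested, 5 rose and 6 fell in SUM159 ALDHbr cells, where 8.56% of all genes rose and 10.9% fell, and 2 rose and 1 fell in SW620, where 1.67% rose and 2.34% fell. Besides ALDH1A1, the member that rose in both was ALDH18A1, a mitochondrial enzyme of proline synthesis, by 0.32 and 0.32 (adjusted p = 0.000897 and 0.00496). ALDH7A1, an enzyme of lysine breakdown, was at 2.57, 2.00 and 2.50 CPM in ALDHbr cells and 12.8, 17.0 and 21.1 CPM in ALDHneg cells in SUM159, with no overlap. The SW620 values were 61.1, 55.7 and 60.5 CPM in ALDHbr cells and 56.6, 54.3 and 55.1 CPM in ALDHneg cells, where the groups overlapped. Its line difference was called (log2 difference -2.94, SE 0.21, adjusted p = 4.67e-07).

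In the main fit SUM159 gave many more calls than SW620, an order that did not hold in every setting. In SUM159, 3062 of 15709 genes were called (19.5%), of which 1345 were higher in ALDHbr cells (8.56%) and 1717 lower (10.9%). SW620 gave 629 calls (4.00%), 262 higher (1.67%) and 367 lower (2.34%). The line difference itself was called for 2278 genes (14.5%), with 1170 more positive in SUM159 (7.45%) and 1108 more negative (7.05%). The number in SW620 rested on 1 library: without SW620 ALDHbr replicate 2 it rose to 3889, next to 3860 in SUM159, and the line difference rose to 4415. Leaving out any other SW620 library gave 243 to 272 calls in SW620. Voom with quality weights called 5745 genes in SW620 and 3731 in SUM159. Same-numbered libraries of SUM159 deviated together, and blocking SUM159 by replicate number gave 3633 calls in SUM159, 1061 in SW620 and 2926 in the line difference.

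A total of 234 genes were called in both lines, which is 7.64% of the SUM159 calls and 37.2% of the SW620 calls. Among them 99 changed in the same direction, 36 higher and 63 lower in ALDHbr cells, and 135 changed in opposite directions, 83 higher in SUM159 and lower in SW620 and 52 the reverse. The same direction therefore made up 42.3% of the genes called in both. Leaving out SW620 ALDHbr replicate 2 gave 368 genes in the same direction and 716 in opposite directions (33.9% the same), leaving out any other SW620 library gave 51 to 60 and 50 to 62 (46.4% to 51.7% the same), and blocking in SUM159 gave 164 and 231. Opposite directions were therefore not the larger group in every setting: without SW620 ALDHbr replicate 3, ALDHneg replicate 2 or ALDHneg replicate 3 the same direction was, by 60 to 56, 51 to 50 and 56 to 55. Across all genes, which are not independent replicates, the log2 fold changes of the lines had a Spearman correlation of -0.111, a description of libraries that share no sample. Of the 99 genes with a shared direction, 25 still differed in size between the lines.

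**Figure D1:**
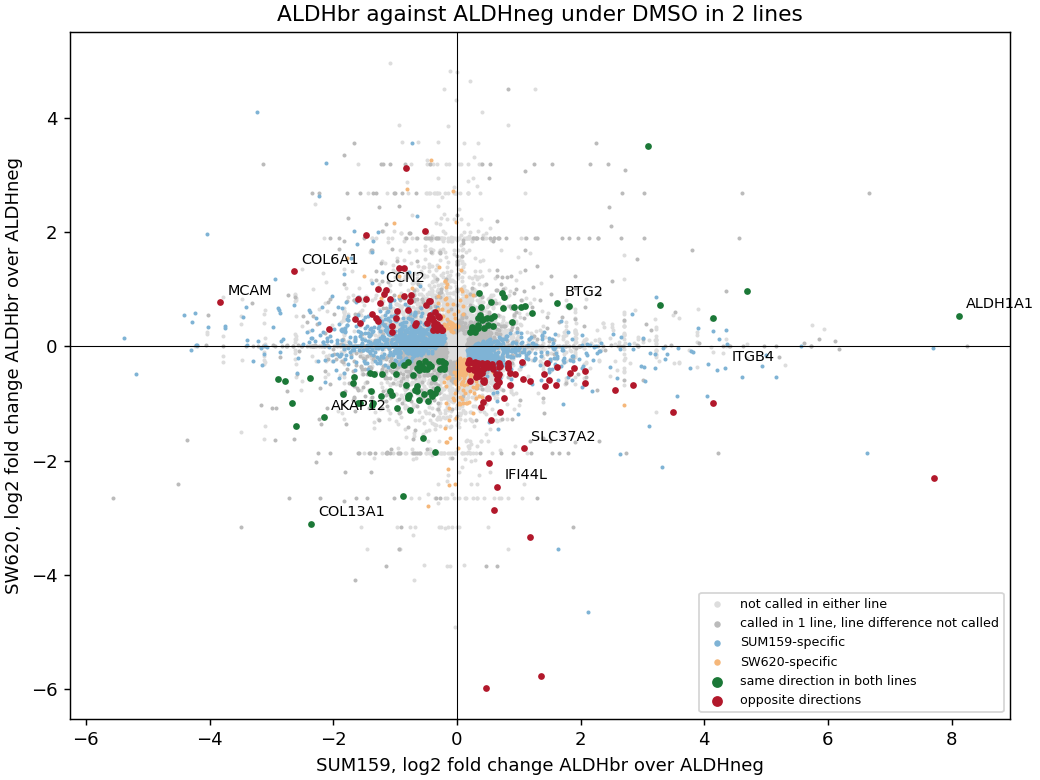
Log2 fold change of ALDHbr over ALDHneg cells in SUM159 (x axis) and in SW620 (y axis) for the genes tested, each point a gene and each color a class of calls. The 135 genes called in opposite directions lie at the upper left and lower right, and the 99 called in the same direction at the upper right and lower left.

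Calls in a single line were taken as particular to it only where the line difference was called too. This held for 1433 genes in SUM159, 646 higher and 787 lower, and for 198 in SW620, 65 higher and 133 lower. For another 1592 genes called in 1 line the difference between lines was not called, so they are not shown to be particular to either. Without SW620 ALDHbr replicate 2 the SUM159-specific genes numbered 1443 and the SW620-specific genes 1714, without any other SW620 library the latter numbered 82 to 98, and with the block in SUM159 they numbered 1735 and 329. A further 487 genes passed the test of the difference with no call in either line. Most line-specific genes were not absent from the other line: 610 of the 646 and 694 of the 787 SUM159-specific genes, and 58 of the 65 and 130 of the 133 SW620-specific genes, reached 1 CPM there.

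Among the 36 genes higher in ALDHbr cells of both lines, apart from ALDH1A1, the clearest after the naming rule were BTG2, IL6R, IGFBP2 and OTULINL. That rule took only genes whose ALDHbr and ALDHneg libraries did not overlap in each line the class is called in. For genes named by it, the lack of overlap stated here and below for those lines was therefore fixed by the choice. BTG2, an antiproliferative gene induced by p53 and by growth signals, was at 12.4, 10.7 and 15.3 CPM in ALDHbr cells and 5.04, 3.17 and 4.26 CPM in ALDHneg cells in SUM159. SW620 libraries gave 18.2, 20.4 and 20.8 CPM in ALDHbr cells and 11.3, 11.8 and 12.3 CPM in ALDHneg cells, and no library overlapped in either line. It rose by 1.62 and 0.75 on the log2 scale (adjusted p = 3.63e-06 and 0.00791), more in SUM159 (log2 difference 0.87, SE 0.21, adjusted p = 0.0136).

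IL6R encodes the ligand-binding chain of the interleukin-6 receptor, upstream of STAT3. It was at 74.2, 67.2 and 74.0 CPM in ALDHbr cells and 36.5, 31.2 and 33.1 CPM in ALDHneg cells in SUM159. In SW620, where it was far lower, it was at 3.29, 3.85 and 3.82 CPM in ALDHbr cells and 2.26, 2.11 and 2.33 CPM in ALDHneg cells. Neither line showed overlap, the gene rose in both (log2 fold change 1.10, SE 0.08, adjusted p = 2.26e-07 and 0.70, SE 0.12, adjusted p = 0.00322), and the line difference was not called (adjusted p = 0.0766). Under NIF the SW620 rise was not seen (log2 fold change -0.06, adjusted p = 0.748), and the line difference was called (0.98, adjusted p = 5.35e-06). STAT3, the transcription factor downstream of the receptor, was at 182, 160.2 and 175 CPM in ALDHbr cells and 144, 126 and 146 CPM in ALDHneg cells in SUM159. It was at 92.8, 112 and 100.2 CPM in ALDHbr cells and 109.8, 109.7 and 109 CPM in ALDHneg cells in SW620, where the groups overlapped. STAT3 rose in SUM159 (log2 fold change 0.31, adjusted p = 0.0107), and the change in SW620 was -0.11 (adjusted p = 0.413). The SUM159 call was lost without SUM159 ALDHbr replicate 1 (0.27, adjusted p = 0.0521), and the line difference (log2 difference 0.42, SE 0.11, adjusted p = 0.0204) lost its call without that library or SW620 ALDHbr replicate 1 (log2 values 0.36 to 0.38, adjusted p 0.0517 to 0.052).

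IGFBP2, a secreted protein that binds insulin-like growth factors, was at 3.18, 3.41 and 2.22 CPM in ALDHbr cells and 0.921, 1.10 and 0.520 CPM in ALDHneg cells in SUM159. Values in SW620 were 39.9, 32.5 and 40.3 CPM in ALDHbr cells and 23.2, 21.5 and 24.2 CPM in ALDHneg cells. The groups did not overlap, and the log2 fold changes were 1.81 and 0.71 (adjusted p = 6.1e-05 and 0.0103). Its SW620 call was lost without ALDHbr replicate 1 or 3 or ALDHneg replicate 1 or 2 of SW620 (log2 values 0.66 to 0.73, adjusted p 0.0541 to 0.0776), and its line difference of 1.10 (adjusted p = 0.0166) was not called without SUM159 ALDHneg replicate 3 (0.80, adjusted p = 0.0592). OTULINL, a relative of the deubiquitinase OTULIN, rose by 0.76 in SUM159 and 0.87 in SW620 (adjusted p = 0.00349 and 0.000361), from a mean near 1 CPM in ALDHneg cells of SUM159. Voom with quality weights did not call the SUM159 rise (0.72, adjusted p = 0.0648).

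The 63 genes lower in ALDHbr cells of both lines were led by COL13A1, AKAP12, TGM2 and GLI2, and the calls of all 4 in both lines were kept under each of the alternatives run on them. AKAP12, a scaffold for protein kinases A and C, was at 22.2, 21.8 and 26.0 CPM in ALDHbr cells and 104, 96.8 and 110.4 CPM in ALDHneg cells in SUM159. For SW620 the levels were 17.8, 25.6 and 21.0 CPM in ALDHbr cells and 50.1, 50.2 and 51.1 CPM in ALDHneg cells. Every ALDHbr value lay well below every ALDHneg value of its line, and the fall was larger in SUM159 (-2.15 against -1.24, log2 difference -0.91, SE 0.15, adjusted p = 0.00111). TGM2, transglutaminase 2, which crosslinks proteins and is a classical retinoic acid target, was at 47.4, 36.1 and 50.6 CPM in ALDHbr cells and 130.1, 117 and 102 CPM in ALDHneg cells in SUM159. Its SW620 values were 88.5, 106 and 101 CPM in ALDHbr cells and 206, 192 and 201 CPM in ALDHneg cells. The groups overlapped in neither line, the log2 fold changes were -1.38 and -1.02 (adjusted p = 1.14e-06 and 0.00022), and their difference of -0.36 (SE 0.16) was not called (adjusted p = 0.157).

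COL13A1, a membrane-spanning collagen, was at 3.80, 2.99 and 4.38 CPM in ALDHbr cells and 17.9, 16.0 and 23.8 CPM in ALDHneg cells in SUM159. In SW620 it was at 0.280, 0.505 and 0.689 CPM in ALDHbr cells and 4.50, 4.09 and 3.94 CPM in ALDHneg cells. The groups overlapped in neither line, and it showed the largest shared fall among the named genes, -2.36 and -3.10 (adjusted p = 5.79e-07 and 3.06e-05). GLI2, a transcription factor of the Hedgehog pathway, fell too, with log2 fold changes of -1.35 and -0.99 (adjusted p = 0.000262 and 0.00459), with no overlap. Other genes that fell in both lines were AXL, a receptor tyrosine kinase of mesenchymal cells (-0.75 and -1.11), ALCAM, an adhesion molecule used as a stem cell marker (-0.46 and -0.95), DKK1, a secreted Wnt inhibitor (-2.38 and -0.56), and ENO2, a glycolytic enolase (-1.21 and -0.49). The adjusted p for these was between 2.45e-09 and 0.00617. FN1, fibronectin, fell in both as well (-0.36 and -1.85), but from a mean near 2 CPM in SW620, and its SUM159 call was lost with any of 5 libraries left out: SUM159 ALDHbr replicates 1 and 2, SUM159 ALDHneg replicates 1 and 3, and SW620 ALDHneg replicate 2 (log2 values -0.37 to -0.26, adjusted p 0.0564 to 0.151).

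**Figure D2:**
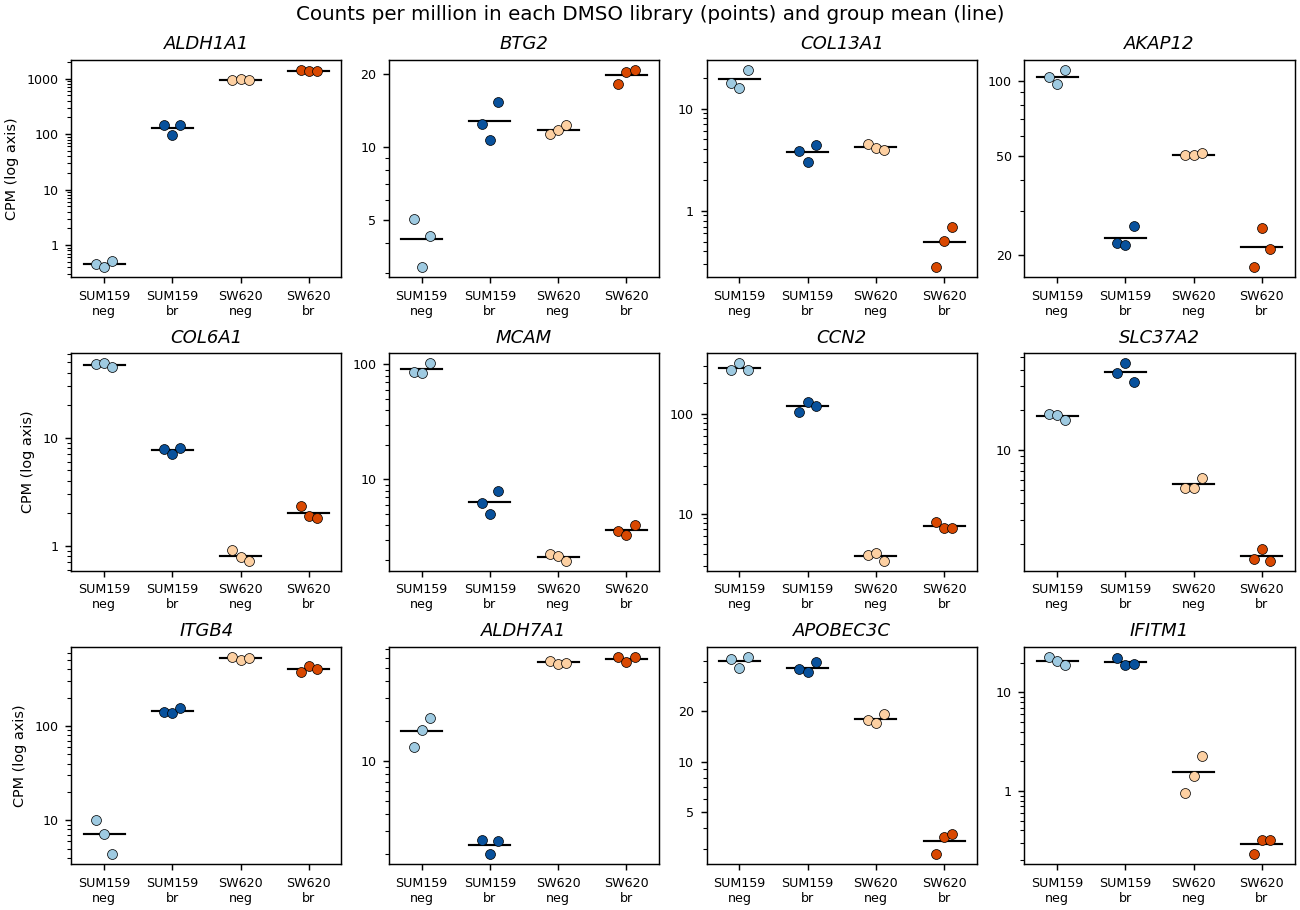
Expression (CPM, log axis) of named genes in each of the 12 libraries, with ALDHbr (br) and ALDHneg (neg) cells of SUM159 and of SW620 as separate groups, each point a library and each line a group mean. ALDH1A1 lies between 97.9 and 148 CPM in SUM159 ALDHbr cells and below 1 CPM in SUM159 ALDHneg cells, and COL6A1 and CCN2 are lower in ALDHbr cells of SUM159 and higher in those of SW620.

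Genes higher in SUM159 ALDHbr cells and lower in SW620 ALDHbr cells numbered 83. SLC37A2, a sugar-phosphate exchanger of the endoplasmic reticulum, was at 37.4, 44.5 and 32.2 CPM in ALDHbr cells and 18.7, 18.3 and 16.9 CPM in ALDHneg cells in SUM159. The SW620 values were 1.53, 1.83 and 1.49 CPM in ALDHbr cells and 5.23, 5.20 and 6.18 CPM in ALDHneg cells. The groups were apart in both lines, in opposite order (1.08 and -1.78, adjusted p = 7.2e-06 and 3.06e-05, line difference 2.86, SE 0.19). SLC14A1, a urea transporter, did the same at lower size (0.77 and -0.90, line difference adjusted p = 7.34e-06). NT5E, the cell-surface enzyme CD73 that makes adenosine, was at 102, 136 and 137 CPM in ALDHbr cells and 70.7, 86.2 and 82.6 CPM in ALDHneg cells in SUM159. SW620 libraries gave 49.0, 57.3 and 52.4 CPM in ALDHbr cells and 84.4, 84.3 and 84.0 CPM in ALDHneg cells, and it rose by 0.65 in SUM159 and fell by 0.67 on the log2 scale in SW620 (adjusted p = 0.00051 and 0.00267).

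IKZF2, the transcription factor Helios, rose by 1.42 in SUM159 (adjusted p = 1.13e-05) and had a SW620 log2 fold change of -0.70 (adjusted p = 0.0331). SLCO3A1, an organic anion transporter, gave 1.61 and -0.69 (adjusted p = 6.49e-05 and 0.0344). ITGA6, integrin alpha 6, gave 0.83 and -0.39 (adjusted p = 2.91e-06 and 0.012). Each of these SW620 calls depended on single libraries. That of IKZF2 was lost with any SW620 library other than ALDHbr replicate 2 left out (log2 values -0.73 to -0.59, adjusted p 0.0789 to 0.162), as was that of SLCO3A1 (log2 values -0.74 to -0.61, adjusted p 0.0813 to 0.172), and that of ITGA6 without ALDHbr replicate 1 or 3 or ALDHneg replicate 1 or 2 of SW620 (log2 values -0.37 to -0.33, adjusted p 0.0637 to 0.0844). Their line differences kept their calls under the alternatives run on them.

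The 52 genes with the reverse pattern, lower in SUM159 ALDHbr cells and higher in SW620 ALDHbr cells, held 1 member of the collagen list and 2 of the TGF-beta and YAP target list. Those lists had 23 and 27 genes tested, and the class held 0.331% of all genes tested. COL6A1, which encodes a chain of collagen VI, was at 7.81, 7.11 and 8.03 CPM in ALDHbr cells and 47.7, 48.8 and 45.5 CPM in ALDHneg cells in SUM159. Values in SW620 were 2.34, 1.89 and 1.81 CPM in ALDHbr cells and 0.910, 0.779 and 0.727 CPM in ALDHneg cells. Groups were apart in both lines, as the naming rule required, and the SW620 values lay near 1 to 2 CPM. The log2 fold change was -2.63 in SUM159 (SE 0.09, adjusted p = 3.65e-10) and 1.32 in SW620 (SE 0.15, adjusted p = 0.000286).

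CCN2 and CCN1 are secreted matricellular proteins and classical targets of YAP and TEAD. CCN2 was at 104, 131 and 119 CPM in ALDHbr cells and 272, 317 and 271 CPM in ALDHneg cells in SUM159. For SW620 the levels were 8.20, 7.23 and 7.15 CPM in ALDHbr cells and 3.90, 4.03 and 3.39 CPM in ALDHneg cells. CCN1 was at 136, 138 and 134 CPM in ALDHbr cells and 286, 309 and 366 CPM in ALDHneg cells in SUM159. For CCN1 in SW620 the values were 18.8, 19.5 and 18.8 CPM in ALDHbr cells and 10.5, 12.7 and 10.6 CPM in ALDHneg cells, so that for both genes ALDHbr cells were the lower group in SUM159 and the higher group in SW620, with no overlap. The SUM159 log2 fold changes were -1.28 for CCN2 and -1.24 for CCN1 (adjusted p = 1.92e-07 and 1.81e-07), those in SW620 0.99 and 0.75 (adjusted p = 0.000389 and 0.000621), and the line differences -2.27 and -1.99 (SE 0.15 and 0.13).

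The start of CCN2 is shown because its opposite change was among the clearest. The window runs from 250 bases before to 50 bases after the start of the gene in RefSeq on GRCh38.p14, chr6:131951323-131951622, minus strand, 5′ to 3′. Capitals mark matches to the TEAD core GGAATG, searched on both strands.
CCN2: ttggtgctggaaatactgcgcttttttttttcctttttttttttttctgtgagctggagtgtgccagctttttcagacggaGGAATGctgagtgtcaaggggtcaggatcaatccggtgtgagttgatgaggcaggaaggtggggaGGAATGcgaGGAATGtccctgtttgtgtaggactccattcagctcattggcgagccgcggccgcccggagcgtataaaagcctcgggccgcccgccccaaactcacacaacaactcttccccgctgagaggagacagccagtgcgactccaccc
It held 3 matches, the most distant 169 bases before the start. Of 12042 tested genes with a window in the table, 1349 (11.2%) held at least 1 match, and of 24 such genes in the TGF-beta and YAP target list 6 did (25%). A match is a description of letters and shows no binding.

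CLU, an extracellular chaperone, was at 77.7, 81.4 and 97.1 CPM in ALDHbr cells and 159, 173 and 131 CPM in ALDHneg cells in SUM159. In SW620 it was at 42.1, 35.5 and 43.3 CPM in ALDHbr cells and 23.6, 21.9 and 20.3 CPM in ALDHneg cells. The order of the groups was again reversed without overlap (log2 fold change -0.85 and 0.88, adjusted p = 6.49e-05 and 0.00076). OVGP1, a secreted glycoprotein of the oviduct, gave -1.15 and 0.98 (adjusted p = 0.00247 and 0.0274), and its SW620 call was lost with any SW620 library other than ALDHbr replicate 2 left out (log2 values 0.85 to 1.05, adjusted p 0.0809 to 0.135). MCAM, the adhesion molecule CD146, fell steeply in SUM159 (log2 fold change -3.83, adjusted p = 3.65e-10), while its SW620 value of 0.77 (adjusted p = 0.0247) lost its call with the same libraries (log2 values 0.70 to 0.82, adjusted p 0.0634 to 0.102). HSPB1, a small heat shock protein, gave -0.99 and 0.49 (adjusted p = 9.07e-06 and 0.019), and its SW620 call was lost without ALDHbr replicate 1 or 3 or ALDHneg replicate 2 or 3 of SW620 (log2 values 0.41 to 0.52, adjusted p 0.0662 to 0.114). ABCC2, an efflux transporter, gave -0.75 and 0.80 (adjusted p = 0.000861 and 0.00979), the latter lost without SW620 ALDHneg replicate 1 (0.66, adjusted p = 0.0559).

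Among the 646 genes higher in ALDHbr cells of SUM159 and particular to that line, PLCH2, a phospholipase C, was at 7.31, 7.24 and 7.85 CPM in ALDHbr cells and 0.352, 0.275 and 0.284 CPM in ALDHneg cells in SUM159. The SW620 values were 0.408, 0.632 and 0.373 CPM in ALDHbr cells and 0.910, 0.501 and 0.606 CPM in ALDHneg cells, with overlap. The line difference was 5.14 (SE 0.38, adjusted p = 5.71e-07). NSG1, a protein of neuronal endosomes, was at 8.29, 8.82 and 10.4 CPM in ALDHbr cells and 0.108, 0.0610 and 0.0946 CPM in ALDHneg cells in SUM159. KRT6A, a keratin of stressed and basal epithelium, was at 12.5, 10.8 and 11.5 CPM in ALDHbr cells and 0.569, 0.366 and 0.213 CPM in ALDHneg cells there. ANXA8L1, an annexin, was at 22.5, 26.0 and 21.2 CPM in ALDHbr cells and 6.37, 8.36 and 7.78 CPM in ALDHneg cells. All 3 rose in SUM159 without overlap (log2 fold change 6.63, 4.93 and 1.63, adjusted p = 7.68e-09, 1.21e-08 and 1.64e-06), and in SW620 all 3 were below 0.1 CPM in every library, so the fitted size of their line difference depends on the prior count and is no measure of size. Those difference calls rested on single libraries. They were lost for NSG1 without SUM159 ALDHneg replicate 1 or 2, SW620 ALDHbr replicate 1 or 3 or SW620 ALDHneg replicate 1 (adjusted p 0.0508 to 1), for KRT6A without SW620 ALDHneg replicate 1 or 2 (adjusted p 0.116 to 0.12), and for ANXA8L1 with any SW620 library other than ALDHbr replicate 2 left out (adjusted p 0.0508 to 0.0986). KRT6A and ANXA8L1 have near-identical copies, and how reads shared with them were counted is not given in the sources used here.

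ITGB4, integrin beta 4 of the hemidesmosome, was at 142, 137 and 155 CPM in ALDHbr cells and 10.2, 7.08 and 4.38 CPM in ALDHneg cells in SUM159. SW620 libraries gave 371, 433 and 402 CPM in ALDHbr cells and 546, 499.7 and 525 CPM in ALDHneg cells. The groups did not overlap in either line, and it rose in SUM159 by 4.33 on the log2 scale, against -0.38 in SW620 (adjusted p = 2.45e-09 and 0.174, log2 difference 4.71, SE 0.25, adjusted p = 5.71e-08). COL17A1, the hemidesmosomal collagen, rose in SUM159 too (1.79 against -0.54, line difference adjusted p = 1.2e-05). The Notch ligand JAG2 was at 168, 169 and 179.8 CPM in ALDHbr cells and 51.3, 52.7 and 50.9 CPM in ALDHneg cells in SUM159. Its SW620 level was 11.2, 8.97 and 11.8 CPM in ALDHbr cells and 13.3, 12.4 and 13.2 CPM in ALDHneg cells, without overlap but not called (adjusted p = 0.0973), and the line difference was 2.01 (SE 0.12, adjusted p = 9.16e-08).

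Several members of the gene lists were among the other SUM159-specific rises. ABCG1, a sterol exporter, rose by 4.05 (line difference adjusted p = 1.41e-07). AKR1C2 and AKR1C1, aldo-keto reductases under NRF2 control that are near-identical to each other, rose by 2.84 and 1.41 (line difference adjusted p = 7.21e-07 and 0.000162). CDKN1A, the cell cycle inhibitor p21, was at 106, 103 and 110.5 CPM in ALDHbr cells and 56.0, 54.7 and 50.5 CPM in ALDHneg cells in SUM159. It was at 25.3, 28.9 and 30.1 CPM in ALDHbr cells and 27.3, 28.0 and 33.1 CPM in ALDHneg cells in SW620, where the groups overlapped, and the line difference was called (log2 difference 1.05, SE 0.12, adjusted p = 4.71e-05). DUSP6, a phosphatase that acts on ERK, rose by 1.06 in SUM159 against -0.11 in SW620 (line difference adjusted p = 0.00017). SQLE, squalene epoxidase of cholesterol synthesis, rose by 0.75 against 0.05 (line difference adjusted p = 0.000147). It does not stand for its list: of the 25 cholesterol synthesis genes tested, 1 rose and 6 fell in SUM159 (8.56% and 10.9% of all genes). VIL1, villin of the intestinal brush border, is among the 646 genes too, at 0.147, 0.0644 and 0.443 CPM in ALDHbr cells and 0, 0 and 0.0237 CPM in ALDHneg cells in SUM159. Its highest SUM159 value was in ALDHbr replicate 3, the library that held reads of SW620 genes, and its SUM159 and line difference calls were kept without it (3.16, adjusted p = 0.0249 and 3.03, adjusted p = 0.042), on few counts.

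Among the 787 genes lower in ALDHbr cells of SUM159 and particular to that line, KRT81, a hair keratin with close copies, was at 1.39, 1.16 and 2.01 CPM in ALDHbr cells and 30.5, 33.0 and 26.7 CPM in ALDHneg cells in SUM159. Values in SW620 were 0.739, 0.568 and 1.15 CPM in ALDHbr cells and 0.598, 0.779 and 0.455 CPM in ALDHneg cells, with overlap (line difference -4.71, SE 0.38, adjusted p = 1.45e-06). ILDR2, a membrane protein of the immunoglobulin family, was at 0.826, 0.644 and 0.938 CPM in ALDHbr cells and 14.1, 12.1 and 19.2 CPM in ALDHneg cells in SUM159. DIRAS1, a small GTPase of the Ras family, was at 4.31, 3.44 and 4.67 CPM in ALDHbr cells and 20.1, 18.3 and 20.2 CPM in ALDHneg cells, and COL6A2, the partner chain of COL6A1, at 6.19, 3.77 and 5.47 CPM in ALDHbr cells and 50.9, 48.9 and 45.1 CPM in ALDHneg cells. The groups stood well apart in each case (log2 fold change -4.22, -2.23 and -3.22, adjusted p = 1.26e-08, 3.49e-08 and 1.32e-08). In SW620 these 3 genes reached at most 0.153 CPM in any library, and the same limit holds for the size of their line difference. The difference call of ILDR2 was lost without SW620 ALDHbr replicate 1 (adjusted p = 0.116).

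NKD2, an inhibitor of Wnt signalling, was at 2.77, 2.25 and 1.62 CPM in ALDHbr cells and 21.5, 21.8 and 16.2 CPM in ALDHneg cells in SUM159. For SW620 the levels were 6.44, 6.16 and 7.69 CPM in ALDHbr cells and 7.70, 6.40 and 6.52 CPM in ALDHneg cells, and the line difference was -3.14 (SE 0.24, adjusted p = 1.05e-06). Other SUM159-specific falls were ABCA3, a lipid transporter (-3.14), KLF2, a transcription factor induced by shear stress (-2.28), CA9, the hypoxia-induced carbonic anhydrase (-2.16), HSPA1A, an inducible HSP70 with a near-identical copy (-1.38), and the mitotic genes PIMREG (-1.20) and AURKB, Aurora kinase B (-0.86). Their line differences had an adjusted p of 0.00122, 9.9e-05, 5.78e-05, 5.04e-05, 7.57e-05 and 3.81e-05. PIMREG and AURKB do not stand for the G2/M list they belong to. Of its 54 genes, 2 rose and 2 fell in SUM159 (8.56% and 10.9% of all genes). The line difference was more positive in SUM159 for 10 of the 54 and more negative for 2 (7.45% and 7.05% of all genes). RPL26, a ribosomal protein, fell in SUM159 as well (-0.85, line difference adjusted p = 4.03e-05), the single fall among 79 ribosomal proteins tested there.

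SW620-specific calls were fewer than SUM159-specific ones in the main fit, but not in every setting. They numbered 1714 against 1443 without SW620 ALDHbr replicate 2, and 2131 against 1306 by voom with quality weights. FCGBP, a component of intestinal mucus, was at 3.03, 3.98 and 2.87 CPM in ALDHbr cells and 1.07, 0.946 and 1.36 CPM in ALDHneg cells in SW620. ADH1C, an alcohol dehydrogenase that also acts on retinol, was at 3.21, 2.49 and 3.22 CPM in ALDHbr cells and 0.572, 0.556 and 0.879 CPM in ALDHneg cells. Both rose without overlap (log2 fold change 1.55 and 2.16, adjusted p = 0.00251 and 0.00146). In SUM159 both were below 1 CPM in every library, so their line difference (adjusted p = 0.0111 and 0.00121) rests on few counts there. The SUM159 log2 fold changes were -1.77 and -1.01, not called (adjusted p = 0.116 and 0.132). ADRA2A, the alpha-2A adrenergic receptor, rose by 1.22 and FAM149A by 0.85 (adjusted p = 0.00201 and 0.0304), and both were under 1 CPM in SUM159. Their log2 fold changes there were -1.50 and -1.22, not called (adjusted p = 0.146 and 0.0541). The SW620 call of FAM149A was lost with any SW620 library other than ALDHbr replicate 2 left out (log2 values 0.73 to 0.99, adjusted p 0.0569 to 0.161). The difference call of ADRA2A was lost without SUM159 ALDHbr replicate 3 or SUM159 ALDHneg replicate 1 (log2 values -2.48 to -2.19, adjusted p 0.0598 to 0.0966).

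Among the 133 genes lower in SW620 ALDHbr cells and particular to that line, 9 were members of the interferon response list counted below. That class held 0.847% of all genes tested, and 9 of the 36 tested genes of the list. APOBEC3C, a cytidine deaminase that restricts retroviruses, was at 2.80, 3.54 and 3.67 CPM in ALDHbr cells and 17.8, 16.9 and 19.2 CPM in ALDHneg cells in SW620. In SUM159 it was at 35.5, 34.5 and 39.3 CPM in ALDHbr cells and 40.9, 36.0 and 42.2 CPM in ALDHneg cells, with overlap. It fell by 2.43 on the log2 scale in SW620 (SE 0.11, adjusted p = 5.81e-08) and the line difference was 2.31 (adjusted p = 1.89e-07). APOBEC3G, of the same family, was at 0.229, 0.379 and 0.402 CPM in ALDHbr cells and 1.98, 2.78 and 2.21 CPM in ALDHneg cells in SW620. OAS2, which makes the 2-5 oligoadenylate that activates RNase L, was at 2.37, 3.38 and 2.81 CPM in ALDHbr cells and 8.92, 9.82 and 10.5 CPM in ALDHneg cells. These genes fell in SW620 too (log2 fold change -2.79 and -1.77, adjusted p = 0.000286 and 7.23e-05), with SUM159 changes of -0.46 and 0.01 (adjusted p = 0.263 and 0.992). BTBD11 fell by 1.03 on the log2 scale in SW620 (adjusted p = 0.000738). Its SUM159 log2 fold change was 2.70, not called (adjusted p = 0.06), on few counts. The difference call of BTBD11 was lost without SUM159 ALDHbr replicate 3 or SUM159 ALDHneg replicate 1 (log2 values 3.30 to 3.42, adjusted p 0.0526 to 0.0827).

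Interferons act through JAK kinases and transcription factors that bind response elements near the start of antiviral genes. Of the 36 genes of the interferon response list tested, 18 fell and 0 rose in SW620 ALDHbr cells, where 2.34% of all genes fell, and 4 rose and 5 fell in SUM159, where 8.56% rose and 10.9% fell. At an unadjusted p under 0.05, 0 of the list were higher in SW620 by edgeR, and DESeq2 and voom called 0 higher too. The list's median log2 fold change was -0.55 in SW620 and -0.07 in SUM159, against a median of 0.00 over all genes in each line. The line difference was called for 15 of the 36, against 14.5% of all genes, in the direction of SW620 being lower in all 15. Without SW620 ALDHbr replicate 2 the falls in SW620 numbered 23, with 12.8% of all genes falling in that fit, and without SUM159 ALDHbr replicate 3 they numbered 21, with 2.54% of all genes. The list was written with earlier results of these data known, so its count is a description.

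IFITM1, which blocks virus entry, was at 0.229, 0.316 and 0.316 CPM in ALDHbr cells and 0.962, 1.42 and 2.24 CPM in ALDHneg cells in SW620. In SUM159 it was at 22.2, 19.1 and 19.6 CPM in ALDHbr cells and 23.0, 20.6 and 18.8 CPM in ALDHneg cells, with overlap. The line difference was called (log2 difference 2.37, SE 0.37, adjusted p = 0.000596). IFI44L was at 0.382, 0.347 and 0.402 CPM in ALDHbr cells and 1.43, 1.92 and 2.97 CPM in ALDHneg cells in SW620, where it fell by 2.46 on the log2 scale (adjusted p = 0.000389). In SUM159 it was at 5.25, 5.89 and 6.75 CPM in ALDHbr cells and 4.52, 3.29 and 3.57 CPM in ALDHneg cells, with a log2 fold change of 0.65 (adjusted p = 0.0385) that lost its call without SUM159 ALDHbr replicate 2 or 3, SUM159 ALDHneg replicate 2 or 3, or SW620 ALDHneg replicate 2 (log2 values 0.55 to 0.66, adjusted p 0.0525 to 0.133). IFIT1, which binds viral RNA, was at 10.7, 9.63 and 9.33 CPM in ALDHbr cells and 18.6, 20.1 and 18.3 CPM in ALDHneg cells in SW620 (log2 fold change -0.94, adjusted p = 0.00029). In SUM159 it was at 0.826, 0.676 and 0.730 CPM in ALDHbr cells and 1.44, 1.04 and 0.970 CPM in ALDHneg cells and fell as well (-0.62, adjusted p = 0.0351), a call lost in 7 of 22 alternatives, among them leaving out any SUM159 ALDHbr library or SUM159 ALDHneg replicate 1 (log2 values -0.70 to -0.42, adjusted p 0.0502 to 0.237). MX2, a GTPase that restricts HIV, fell in both lines (-2.59 in SUM159 and -1.40 in SW620, adjusted p = 7.62e-05 and 0.00267).

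IFI6 and IFI27 were picked after their values were seen. IFI6 was at 39.2, 32.0 and 36.7 CPM in ALDHbr cells and 106, 114 and 123 CPM in ALDHneg cells in SW620 (log2 fold change -1.67, SE 0.11, adjusted p = 1.38e-06). IFI27 was at 46.2, 44.6 and 49.0 CPM in ALDHbr cells and 98.4, 104 and 107 CPM in ALDHneg cells there (log2 fold change -1.15, SE 0.07, adjusted p = 6.16e-07), and it rose in SUM159 (0.70, adjusted p = 0.00288) from a mean near 1 CPM, a call that voom did not make.

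Windows of 4 of these genes are printed because their falls in SW620 are the ones just described. Each runs from 250 bases before to 50 bases after the start in RefSeq on GRCh38.p14, read 5′ to 3′ on the gene's strand: IFI44L at chr1:78620198-78620497, plus strand, IFI6 at chr1:27672143-27672442, minus strand, IFIT1 at chr10:89392373-89392672, plus strand, and IFITM1 at chr11:313790-314089, plus strand. Capitals mark matches to GAAANNGAA, the core of the interferon-stimulated response element, searched on both strands.
IFI44L: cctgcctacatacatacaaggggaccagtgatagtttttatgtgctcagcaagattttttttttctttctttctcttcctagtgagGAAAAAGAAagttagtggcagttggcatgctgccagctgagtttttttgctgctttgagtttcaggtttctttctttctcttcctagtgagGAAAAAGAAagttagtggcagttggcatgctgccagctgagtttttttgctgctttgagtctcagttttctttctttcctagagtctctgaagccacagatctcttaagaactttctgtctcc
IFI6: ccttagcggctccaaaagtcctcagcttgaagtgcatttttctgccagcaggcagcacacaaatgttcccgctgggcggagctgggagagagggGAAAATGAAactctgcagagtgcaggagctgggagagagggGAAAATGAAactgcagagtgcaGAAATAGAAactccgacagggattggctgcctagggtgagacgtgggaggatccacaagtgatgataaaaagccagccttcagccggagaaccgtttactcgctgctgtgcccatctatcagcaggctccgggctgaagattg
IFIT1: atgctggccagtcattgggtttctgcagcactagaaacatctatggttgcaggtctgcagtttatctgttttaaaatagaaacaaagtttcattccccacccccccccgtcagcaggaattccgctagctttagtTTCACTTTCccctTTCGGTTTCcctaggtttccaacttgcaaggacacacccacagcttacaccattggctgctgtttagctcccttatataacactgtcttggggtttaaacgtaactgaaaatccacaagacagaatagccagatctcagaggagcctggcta
IFITM1: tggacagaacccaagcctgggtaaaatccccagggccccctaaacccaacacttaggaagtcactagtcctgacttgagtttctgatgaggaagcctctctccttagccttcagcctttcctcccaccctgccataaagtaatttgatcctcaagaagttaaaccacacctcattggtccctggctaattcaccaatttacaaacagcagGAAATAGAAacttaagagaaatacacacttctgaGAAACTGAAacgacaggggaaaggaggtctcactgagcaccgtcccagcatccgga
IFI44L, IFIT1 and IFITM1 held 2 matches each and IFI6 held 3, those of IFIT1 on the other strand. Over all 12042 windows, 810 held a match (6.73%), against 18 of 28 windows of the interferon list (64.3%). Within the list, 12 of 15 windows of genes that fell in SW620 held a match (80%), and 6 of 13 of genes not called there (46.2%). This split uses the SW620 calls themselves, rests on few windows and was not tested. A match shows no binding here either. The element is a known feature of genes that interferon induces.

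**Figure D3:**
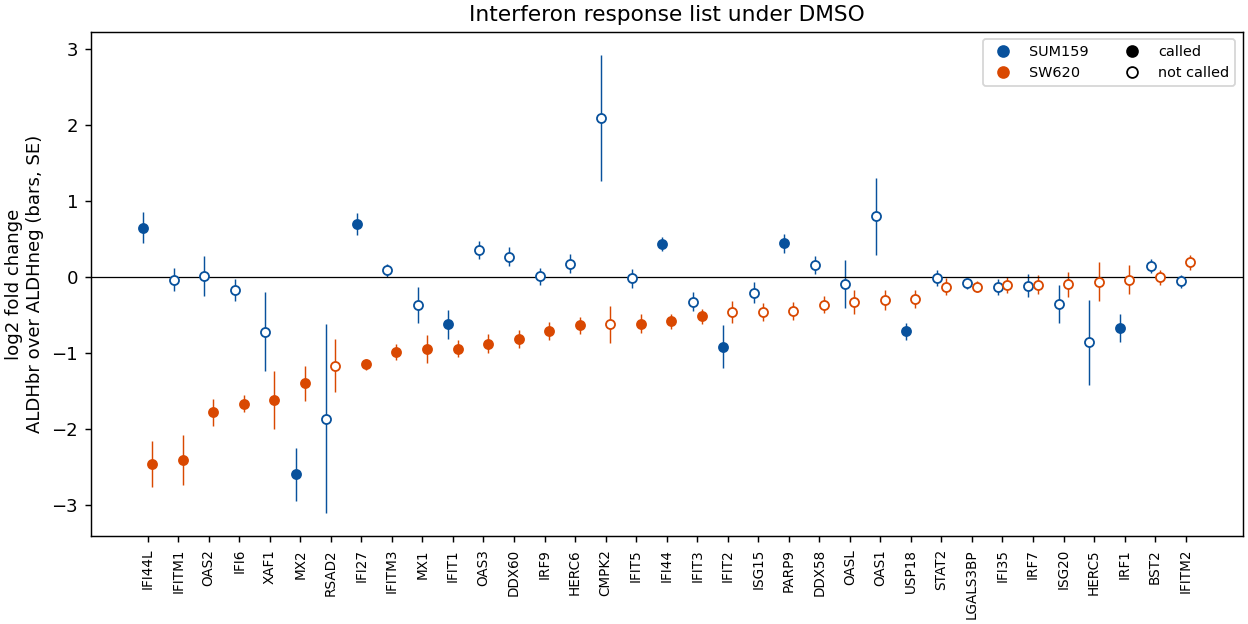
Log2 fold change of ALDHbr over ALDHneg cells for 35 of the 36 tested genes of the interferon response list, in SUM159 and in SW620, with filled points for calls and bars for the SE. In SW620 the called genes, 17 of the 35 drawn, all lie below 0, and in SUM159 4 called genes lie above and 5 below.

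Antigen presentation by HLA class I is switched on by interferon as well. Of 14 genes of that list tested, 6 fell in SW620 (2.34% of all genes), 3 rose and 3 fell in SUM159 (8.56% and 10.9%), and 5 were called in the line difference (14.5%). TAP1, the peptide transporter, was at 83.3, 84.2 and 83.0 CPM in ALDHbr cells and 65.9, 70.6 and 65.1 CPM in ALDHneg cells in SUM159. In SW620 it was at 10.7, 10.3 and 11.7 CPM in ALDHbr cells and 15.3, 14.6 and 17.7 CPM in ALDHneg cells, and it rose in SUM159 and fell in SW620 (0.31 and -0.54, adjusted p = 0.00769 and 0.00204). HLA-B fell in both lines (-0.38 and -0.55, adjusted p = 0.0104 and 0.0052). HLA genes are highly alike, and reads shared between them leave their single values uncertain.

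Further gene lists were counted in the same way. Of 27 TGF-beta and YAP targets, secreted factors and matrix genes among them, 13 fell and 2 rose in SUM159 (median log2 fold change -0.26), where 10.9% of all genes fell, and 4 fell and 2 rose in SW620 (median -0.18), where 1.67% of all genes rose and 2.34% fell. Of 10 mesenchymal markers, 6 fell in SUM159 and 4 in SW620, and 0 rose in either by edgeR, at an unadjusted p under 0.05 or by DESeq2 or voom. The median over the markers was -0.39 in SUM159 and 0.09 in SW620, the latter of the other sign than its 4 called members. Summed over the list, SW620 ALDHbr libraries held 108 to 120 CPM and ALDHneg libraries 159 to 173, with VIM at a mean of 0.285 and 0.236 CPM and ZEB2 at 0, and the part of other cells in the falls was not tested. Of 23 collagens, 11 fell and 6 rose in SUM159 (median -0.44), where 10.9% of all genes fell and 8.56% rose. In SW620, 2 of them fell and 1 rose (median 0.02), against 2.34% and 1.67% of all genes. Genes of epithelial-mesenchymal transition were called in both directions in SUM159, 8 up and 9 down of 39 (8.56% and 10.9% of all genes).

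Of 28 p53 targets, 9 rose and 2 fell in SUM159 (median 0.15), where 8.56% of all genes rose, and 2 rose and 1 fell in SW620 (median 0.02). SESN1, a stress-induced regulator of growth signalling and the other p53 target besides BTG2 to rise in both, gave 0.41 and 0.48 (adjusted p = 0.0203 and 0.0332). It lost its call in SUM159 without ALDHbr replicate 1 or 3 or ALDHneg replicate 2 (log2 values 0.33 to 0.39, adjusted p 0.0653 to 0.0914) and in SW620 without ALDHbr replicate 1 or ALDHneg replicate 1 or 2 (log2 values 0.45 to 0.48, adjusted p 0.101 to 0.138). In SUM159, where 8.56% of all genes rose and 10.9% fell, NRF2 targets rose in 6 and fell in 2 of 26. NF-kB and inflammatory genes rose in 7 and fell in 2 of 30 there. ATF4 targets, amino acid and stress genes, fell in 8 of 26, where 10.9% of all genes fell. Cholesterol synthesis genes fell in 6 and rose in 1 of 25 in SUM159, and rose in 2 of 25 in SW620. In SW620 each of these lists had at most 2 calls in a direction, where 1.67% of all genes rose and 2.34% fell.

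IL-6 and STAT3 signalling genes were called in both directions, 8 up and 5 down of 37 in SUM159 (8.56% and 10.9% of all genes) and 1 up and 4 down in SW620 (1.67% and 2.34%). Of 28 Fanconi anemia genes, which repair crosslinked DNA, 1 rose in SUM159, where 8.56% of all genes rose. In SW620, 2 of them fell, where 2.34% of all genes fell. The line difference was more positive in SUM159 for 4 of the 28 and more negative for 0 (7.45% and 7.05% of all genes). FAN1, a nuclease of that pathway, rose in SUM159 (0.31, adjusted p = 0.00477) against -0.23 in SW620 (adjusted p = 0.0785, line difference adjusted p = 0.00184). Without SW620 ALDHbr replicate 2 the line difference was called for 13 Fanconi genes, 10 of them more positive in SUM159, in place of 4, while the share over all genes went from 14.5% to 27.4%.

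Lists that follow RNA make-up moved with the library that stood apart. All 79 cytosolic ribosomal proteins had a positive log2 fold change in SW620, with a median of 0.26, but 4 were called. Without SW620 ALDHbr replicate 2, 74 of the 79 were called, and 65 of 75 nuclear subunits of the respiratory chain in place of 3, while the SW620 calls over all genes went from 4.00% to 24.2%. Across genes the SW620 log2 fold change fell with the span of the gene on the genome (Spearman -0.267, and -0.306 without that library), against 0.0848 in SUM159. Gene span and these lists therefore moved with the sort in SW620, and their part in the other SW620 results was not tested. Of 54 G2/M genes, 5 fell in SW620 (2.34% of all genes), and 23 without that library (12.8% of all genes). Of 43 S phase genes, 3 rose in SW620 (1.67% of all genes) and 2 in SUM159 (8.56%).

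**Figure D4:**
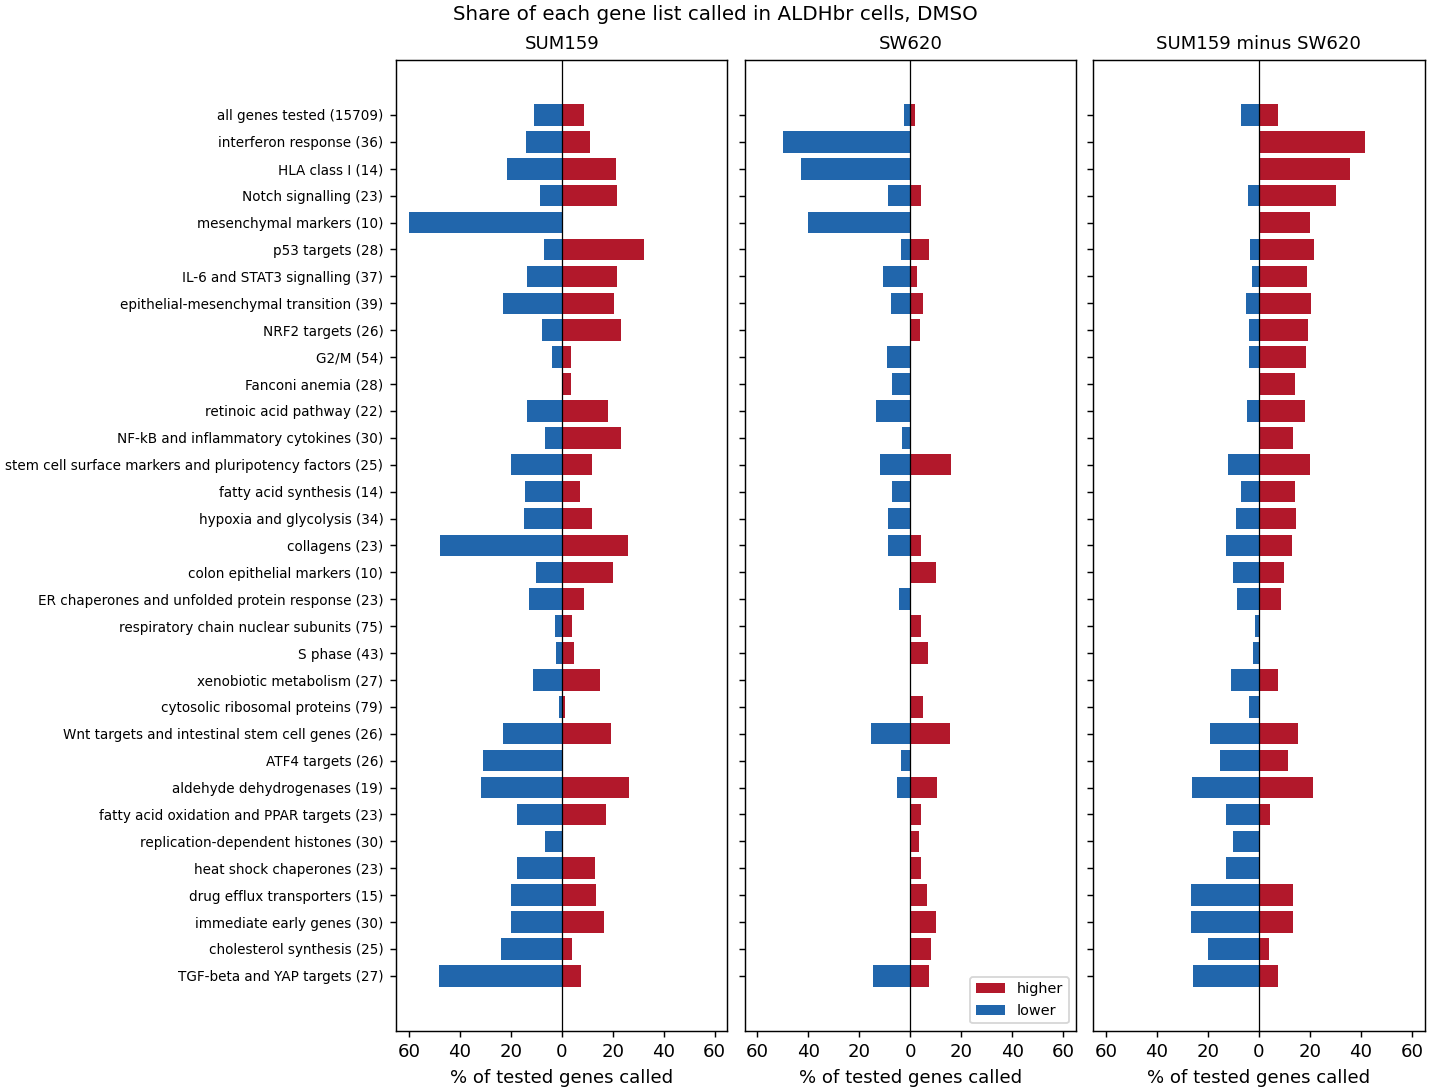
Percent of the tested genes of each list called higher (right of 0) and lower (left of 0) in ALDHbr cells, for SUM159, for SW620 and for the difference between them, with all 15709 genes in the top row. The interferon list has 18 of 36 genes lower in SW620, and in SUM159 the mesenchymal markers (6 of 10) and the TGF-beta and YAP targets (13 of 27) extend furthest to the lower side together with the collagens (11 of 23).

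The NIF libraries share no sample with the DMSO libraries and had no part in forming the classes. Both sets came from the same lines and carry the same replicate numbers, and whether they came from the same experiments was not tested. The NIF libraries were fitted in the same way and are other libraries of the same sort under another treatment, not a repeat. There, 3680 of 15775 genes were called in SUM159 (23.3%), 846 in SW620 (5.36%) and 2343 in the line difference (14.9%). Of the 2278 genes called in the line difference under DMSO, 2274 were tested under NIF, 2243 had the same sign (98.6%, against 75.4% of all genes tested under both) and 1462 were also called with that sign (64.3%).

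Each class kept its direction for most of its genes. The 63 genes lower in both lines were lower again in 63 (SUM159) and 62 (SW620) under NIF, and the 36 higher in both were higher in 33 and 35. Of the 83 genes higher in SUM159 and lower in SW620, 81 and 78 kept the sign, and of the 52 with the reverse pattern all 52 did in each line. For all genes the same sign was seen in 80.3% (SUM159) and 71.7% (SW620). The class itself, which needs the calls too, was the same under NIF for 13 of the 36 genes higher in both, 34 of the 63 lower in both, 38 of the 83 and 21 of the 52 with opposite directions, 399 of 642 and 519 of 787 SUM159-specific genes tested (higher and lower), and 22 of 65 and 58 of 133 SW620-specific genes.

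Of the 32 genes named by the class rule, 23 were in the same class under NIF and 9 were not. IL6R became SUM159-specific. IKZF2 and OVGP1 did as well, since their SW620 changes kept the sign and were not called (-0.38 and 0.70, adjusted p = 0.333 and 0.207). The line difference was not called under NIF for NSG1, ANXA8L1 and BTBD11 (adjusted p = 1, 0.661 and 0.149), and ADH1C was called in neither line (adjusted p = 0.166 and 0.224). APOBEC3G fell in both lines and FAM149A fell in SUM159 and rose in SW620, so that both were called in SUM159 too (log2 fold change -0.94 and -2.41, adjusted p = 0.0102 and 0.00153). Of the 27 named genes with a called line difference, all 27 had the same sign under NIF and 23 were called again. Among these the log2 difference was -3.31 for COL6A1, -1.58 for CCN2, 1.90 for SLC37A2 and 1.69 for APOBEC3C, next to -3.95, -2.27, 2.86 and 2.31 under DMSO. Outside that rule, ALDH1A3 changed by 0.05 in SW620 (adjusted p = 0.806), and ALDH1A1 had a line difference of 7.85 next to 7.58. In the interferon list, 23 of 36 genes fell in SW620 ALDHbr cells under NIF, where 3.18% of all genes fell. Of the 79 ribosomal proteins, 78 had a positive log2 fold change in SW620 under NIF, with a median of 0.13.

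**Figure D5:**
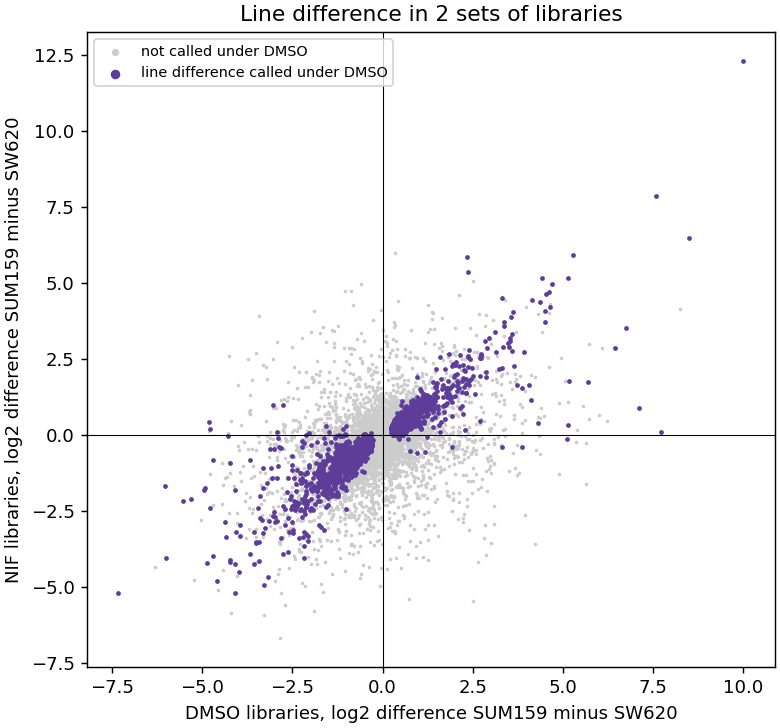
Log2 difference between lines (SUM159 minus SW620, of ALDHbr over ALDHneg) in the DMSO libraries (x axis) and in the NIF libraries (y axis), each point a gene, with those called in the line difference under DMSO in purple. Of the 2274 called genes tested in both, 2243 lie at the upper right or lower left.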

How the data were processed

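Total RNA of the sorted cells of both lines, kept for 30 h in DMSO or NIF, was sequenced in 8 groups of 3 libraries. The file deposited by the authors holds raw counts for 28307 genes, of which 5615 had no count in the 12 DMSO libraries. FastQC, STAR and GRCh38 are named in the submitters' processing notes. The counting tool and its handling of shared reads and of strand are not given in the sources used here. No read-level step could be repeated, and the depth of 30253187 to 41573418 counts per library sets the precision.

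Groups came from the labels. Counts entered edgeR 4.0.16 in R 4.3.3 (filterByExpr by group, TMM, quasi-likelihood F test, Benjamini-Hochberg adjustment over 15709 genes, threshold 0.05), with 1 fit of the 12 DMSO libraries and 3 contrasts. SE is the log2 fold change divided by the square root of F. CPM carry TMM factors, and scores use log2 CPM with a prior count of 2. The NIF libraries were fitted apart. In a test on simulated counts, 194 of 200 genes changed 2-fold in SUM159 were recovered among 15571 with 5 other calls, and 180 in the line difference with 5. The changed genes were drawn from those with higher mean CPM, most of them were lowered, and the sign was not part of recovery. No change was simulated in SW620 and no library stood apart. The test therefore does not cover genes at low counts or the SW620 calls.

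In each class the 4 genes with the largest change (the smaller of both lines' changes, or the line difference) were named, provided that mean log2 CPM reached 1 and that libraries did not overlap. In each gene list up to 3 genes by line difference and 2 by shared change could be named, and ALDH1A1, ALDH1A3 and STAT3 always. Not every gene the rule allowed is described. A gene of the interferon response list is counted in it but not reported here. Genes, lists and tests were chosen with earlier results of these data known, so no pattern here is independent of them. CCN1, OAS2 and COL6A1 had no RefSeq window in the table used.

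Replicate numbers paired the SUM159 libraries, since deviations from the group means were correlated between libraries of the same number (Pearson 0.200, 0.164 and 0.215, limit 0.1), and not those of SW620 (0.00655, 0.0464 and -0.0255). A block in SUM159 alone, and leaving out the libraries that stood apart in the gene lists, were added after the data were seen. Other alternatives were DESeq2 1.42.0, limma 3.58.1 voom with quality weights, other scalings, filters and samples, and leaving out each library.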

Additional observations from a re-analysis of the deposited data

Results flagged for a closer look

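The ALDHbr against ALDHneg change differed between SUM159 and SW620, by the interaction contrast of edgeR's quasi-likelihood test with Benjamini-Hochberg adjustment, for 2278 of 15709 genes. With 3 libraries per group no test of single outlying libraries was made. The named genes with a called difference follow, with the log2 difference SUM159 minus SW620 for each. Causes were not tested.

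Among genes higher in ALDHbr cells of both lines the rise was larger in SUM159 for BTG2 (log2 difference 0.87) and IGFBP2 (1.10). Among those lower in both, AKAP12 fell further in SUM159 (-0.91). Genes higher in SUM159 ALDHbr cells and lower in SW620 ALDHbr cells were SLC37A2 (2.86), SLC14A1 (1.67), IKZF2 (2.12) and SLCO3A1 (2.29). The reverse held for COL6A1 (-3.95), CCN2 (-2.27), OVGP1 (-2.14) and CLU (-1.73).

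In SUM159 alone, NSG1 (8.50), KRT6A (5.29), ANXA8L1 (5.17) and PLCH2 (5.14) were higher and COL6A2 (-7.33), DIRAS1 (-4.86), KRT81 (-4.71) and ILDR2 (-4.24) lower in ALDHbr cells. For NSG1, KRT6A, ANXA8L1, COL6A2, DIRAS1 and ILDR2 the SW620 libraries held few or no counts, so the fitted difference depends on the prior count and is no measure of size. Called in SW620 alone, FCGBP (-3.32), ADH1C (-3.17), ADRA2A (-2.72) and FAM149A (-2.07) were higher and BTBD11 (3.73), APOBEC3G (2.33), APOBEC3C (2.31) and OAS2 (1.79) lower in ALDHbr cells. FCGBP, ADH1C, ADRA2A, FAM149A and BTBD11 were below 1 CPM in SUM159, and the same limit holds for them. Their SUM159 log2 fold changes, -1.77, -1.01, -1.50, -1.22 and 2.70 in that order, had the other sign and were not called. Those changes are part of the differences given.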

How the results depend on the processing

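The direction of the 178 values checked for named genes held in every alternative that could be run on them, and 151 of them lost no call. Of 3879 such comparisons, 3783 stayed on the same side of the threshold and the other 96 lost a call. The values checked were contrasts called in the main fit, so a call could be lost but not gained. Contrasts of named genes not called there, such as the line difference of IL6R, were not among them. Each alternative refitted all or most of the same libraries, so kept directions are a weak check. Most losses came from leaving out a SW620 library other than ALDHbr replicate 2. Counts moved more than single genes did. In what follows they are given in the order SW620 calls, genes called in both lines with the same direction, genes called in both with opposite directions and SW620-specific genes, which were 629, 99, 135 and 198. They were 1413, 185, 275 and 465 by DESeq2, 1379, 188, 270 and 441 with all 24 libraries in the fit, and 5745, 599, 758 and 2131 by voom with quality weights, which also called 4640 line differences and gave 2574 in place of 1462 genes with the same call under NIF. With the replicate block within each line they were 1626, 212, 323 and 579, and with the block in SUM159 alone, the line whose numbers paired the libraries, 1061, 164, 231 and 329. The blocks ended no call of a named gene. With no filter on low counts SW620 had 964 calls and 329 specific genes. With a minimum absolute log2 fold change of 1, SUM159 had 896 calls, SW620 100, the line difference 723, both lines 5 in the same and 7 in opposite directions, and 425 and 45 genes were specific to SUM159 and SW620. Library-size scaling gave 1076 higher and 1902 lower in SUM159, in place of 1345 and 1717.

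Leaving out 1 library at a time gave 2291 to 3860 calls in SUM159, 243 to 3889 in SW620 and 1544 to 4415 in the line difference, 51 to 368 genes in the same direction, 50 to 716 in opposite directions, 1069 to 1443 SUM159-specific genes and 82 to 1714 SW620-specific genes. The highest value of each came without SW620 ALDHbr replicate 2. Without that library 99 of the 99 same-direction genes and 135 of the 135 opposite genes were called in the same way, as were 1103 of the 1433 SUM159-specific and 174 of the 198 SW620-specific genes. The cause of these moves was not tested.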
